A study of Mus musculus with 12 samples.

Results

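Expression of 10 genes of the NRF2 pathway and of oxidant defence was followed in mouse fetal liver alveolar-like macrophages (FLAMs), which are macrophages grown from fetal liver cells in the growth factor GM-CSF. The genes were chosen by symbol: Nfe2l2, Nqo1, Hmox1, Gclm, Gclc, Srxn1, Txnrd1, Slc7a11, Sod2 and Prdx1. They are 10 of the 40847 rows of the count table, and all 10 passed the filter on low counts. Every group was kept in 30 ng/ml mouse GM-CSF. The untreated group received nothing else, the TGFβ group 20 ng/ml human TGFβ1, the Pam3 group 25 ng/ml Pam3CSK4 for 18 h, and the Pam3+TGFβ group both agents at the same doses. Pam3CSK4 (Pam3) is a synthetic lipopeptide that activates TLR2. TGFβ is a cytokine that alveolar macrophages need to develop and keep their identity. Each group has 3 libraries. The time spent in TGFβ is not given in the sources used here, and nothing there says that replicates came from separate animals, so the p-values measure the spread between these libraries, which may be technical.

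NRF2, encoded by Nfe2l2, is a transcription factor that is held at a low protein level by KEAP1, which delivers it for degradation. Oxidants and electrophiles modify KEAP1, and NRF2 then accumulates, pairs with a small MAF protein and binds antioxidant response elements near genes for glutathione, thioredoxin, quinone and haem metabolism. Because this control acts on the protein, the Nfe2l2 mRNA is not a measure of NRF2 activity. Activated macrophages produce superoxide with their NADPH oxidase, and the same enzymes protect them from it. Slc7a11 is in addition a known target of ATF4, and Sod2 a known target of NF-κB.

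The promoters of Srxn1, Prdx1 and Slc7a11 are shown because these genes rose with Pam3 in cells with TGFβ (below) and because their windows hold the letters of sites known for this pathway. These reasons do not set them apart, since 9 of the 10 genes rose in that comparison. Among those, Nfe2l2, Gclm and Txnrd1 also hold an antioxidant response element core, and the windows of Nqo1 and Sod2 hold none of the motifs searched. Windows from 250 bases before to 50 bases after the start, from RefSeq on GRCm38.p6, were matched by symbol for 8 of the 10 genes (10 windows, 3 of them for Txnrd1), and not for Hmox1 and Gclc. Printed are the 250 bases before the start, 5′ to 3′ along the gene. In Srxn1 (chr2:152105274-152105523, plus strand) and Prdx1 (chr4:116685349-116685598, plus strand), capitals mark the AP-1 motif TGAGTCA and antioxidant response element cores, TGAGNNNGC in Srxn1 and TGACNNNGC in Prdx1. In Slc7a11 (chr3:50443614-50443863, minus strand) they mark TGATGNAA, a composite site for C/EBP and ATF proteins such as ATF4. A TGAGNNNGC match in Slc7a11, GCTTTCTCA at -97 to -89 from the start, is left in lower case.
Srxn1: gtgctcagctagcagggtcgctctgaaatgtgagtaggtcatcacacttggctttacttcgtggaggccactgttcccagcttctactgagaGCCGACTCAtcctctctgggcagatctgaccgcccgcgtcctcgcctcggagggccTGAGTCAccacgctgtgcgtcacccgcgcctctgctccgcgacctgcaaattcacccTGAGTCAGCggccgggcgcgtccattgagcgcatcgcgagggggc
Prdx1: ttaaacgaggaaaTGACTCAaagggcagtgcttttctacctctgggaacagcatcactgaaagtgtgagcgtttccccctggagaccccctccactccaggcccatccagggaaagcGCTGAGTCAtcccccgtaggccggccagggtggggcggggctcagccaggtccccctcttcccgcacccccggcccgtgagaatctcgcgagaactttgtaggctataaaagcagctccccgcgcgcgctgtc
Slc7a11: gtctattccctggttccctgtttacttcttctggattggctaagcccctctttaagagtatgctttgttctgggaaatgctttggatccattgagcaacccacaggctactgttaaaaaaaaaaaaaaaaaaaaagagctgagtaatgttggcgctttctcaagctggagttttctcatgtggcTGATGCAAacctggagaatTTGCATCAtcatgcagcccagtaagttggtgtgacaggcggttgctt

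The 5 motifs were searched on both strands with these windows in view. TGACNNNGC was found in 5 of the 10 windows, 1 each of Nfe2l2, Gclm, Srxn1, Txnrd1 and Prdx1, against 12.4% of all 32851 windows. TGAGNNNGC was found in 3 of the 10 (Srxn1, Slc7a11 and Prdx1), against 17.6% of windows. TGAGTCA was found in 2 of the 10 (Srxn1 and Prdx1), against 5.2% of windows. With positions counted from the start (negative before it), the copy at -45 to -39 in Srxn1 is part of the TGAGNNNGC match, and the copy at -131 to -125 in Prdx1 is part of the TGACNNNGC match. TGATGNAA was found in 1 of the 10, that of Slc7a11, with first bases at -66 and -47, against 3.97% of windows. A 10-letter form of the NF-κB site was found in none of the 10 windows, against 1.47% of windows. A match is a run of letters only, and sites outside these windows were not searched.

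The libraries held 34036650 to 44374115 counts, and mitochondrial genes took 0.068% to 0.113% of them in 7 libraries and 0.348% to 0.596% in the other 5. The 5 are untreated replicate 3, TGFβ replicates 1 and 3 and Pam3 replicates 2 and 3, so that all 3 Pam3+TGFβ libraries are among the 7, with 2 untreated, 1 TGFβ and 1 Pam3 library. Macrophage markers were abundant throughout, with a summed level over 9 genes of 17665 to 18595 CPM with TGFβ, 26301 to 26946 with Pam3+TGFβ, and 33976 to 37876 in the 6 libraries without TGFβ. CPM here is the count relative to the TMM-scaled library size. The macrophage sum was mostly Lyz2, and not every gene of it was lower with TGFβ. Without Pam3 the group means of Mertk were 223 CPM untreated and 222 with TGFβ, and the rest of the list was lower with TGFβ. With Pam3 alone and with both agents, Mertk stood at 193 and 228 CPM, Csf1r at 1235 and 1241, and Cd14 at 73.6 and 109. The rest of the list was lower with both agents than with Pam3 alone. Of 6 alveolar macrophage markers, Siglecf, Pparg and Chil3 had their highest means with TGFβ (300, 225 and 5038 CPM, against 32.1, 117 and 2954 untreated), and Car4 stood at 448 CPM untreated, 774 with TGFβ, 835 with Pam3 and 1529 with both agents. Marco stood at 2147 CPM untreated and 123 CPM with TGFβ, and Fabp4 stood at 0.132 and 0.181 CPM in the 2 groups with TGFβ against 31.1 CPM untreated. Markers of other cell types were low: the 6 erythroid genes summed to at most 1.46 CPM with Hbb-bs at 0, the 5 hepatocyte genes to at most 10.2 CPM, mostly from Afp, with Ttr at 0, the 5 fibroblast genes to at most 0.904 CPM with Col1a2 at 0, and 4 of 5 lymphoid genes had no count. The 4 endothelial genes, with Emcn at 0, summed to at most 2.48 CPM, and the 6 mast cell and megakaryocyte genes, with Mcpt4 and Tpsb2 at 0, to at most 5.38 CPM, both lower in the groups with TGFβ. The 7 neutrophil genes, with Mpo at 0, summed to 13.5 to 15.7 CPM untreated, 3.75 to 5.51 with TGFβ, 16.3 to 17.1 with Pam3 and 5.31 to 6.99 with both, mostly S100a8.

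The transcription factor gene itself, Nfe2l2 (5 exons, protein-coding like all 10, on the minus strand of chromosome 2 from 75504739 to 75534985 in GRCm39), was lowest with TGFβ. Its levels were 273, 303 and 300 CPM untreated, 181, 194 and 178 with TGFβ, 315, 309 and 304 with Pam3, and 250, 239 and 243 with Pam3+TGFβ. The groups did not overlap, and the order was TGFβ, Pam3+TGFβ, untreated and Pam3, although untreated and Pam3 were neighbours that did not pass the test. TGFβ lowered it, with a log2 value of -0.66 without Pam3 (SE 0.0452, adjusted p 3.52e-12) and -0.34 with Pam3 (SE 0.0449, adjusted p 5.81e-07). Pam3 raised it in cells with TGFβ, by 0.40 (SE 0.0451, adjusted p 5.62e-08), and its value without TGFβ was 0.08 (95% interval -0.01 to 0.18, adjusted p 0.222). In bulk RNA a smaller share of expressing cells and less RNA per cell cannot be told apart, here and for every gene that follows.

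**Figure D1:**
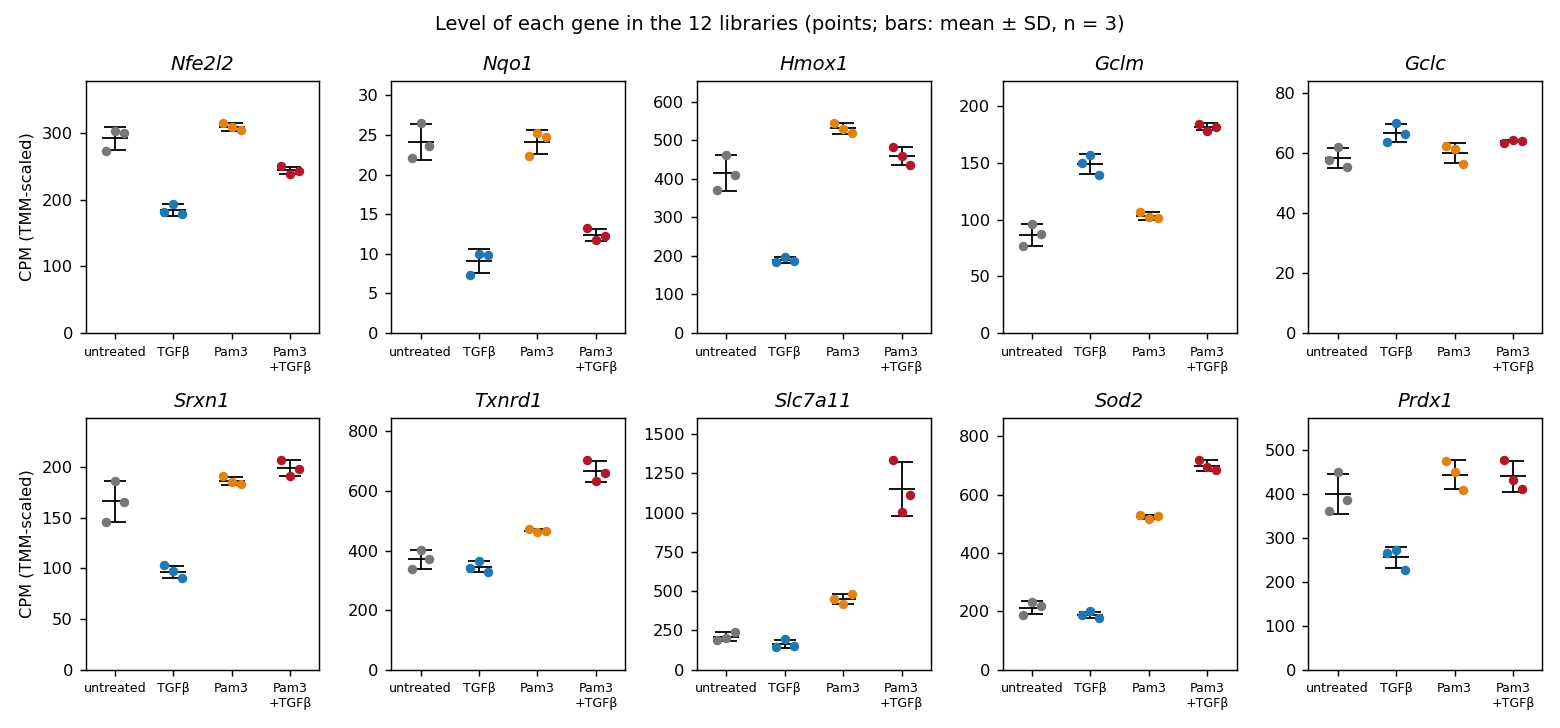
Level of each of the 10 genes (CPM, TMM-scaled, linear axes from 0) in the 12 libraries, by group; points are libraries and bars are the mean ± SD of 3. Slc7a11 reached 1003 to 1337 CPM with Pam3+TGFβ against at most 480 CPM in any other group, and Nqo1 and Hmox1 were lowest with TGFβ.

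The widest range among the 10 was that of Slc7a11 (chromosome 3, 49846975 to 50398070, minus strand, 12 exons), which encodes xCT, the transporter that imports cystine for glutathione synthesis. It stood at 188, 202 and 241 CPM untreated, 143, 195 and 152 with TGFβ, 451, 416 and 480 with Pam3, and 1337, 1003 and 1113 with both agents. Every Pam3 library was above every library without Pam3, and the Pam3+TGFβ libraries were above all others. In log2 units Pam3 raised it by 1.09 without TGFβ (SE 0.154, adjusted p 0.000993) and by 2.82 with TGFβ (SE 0.162, adjusted p 5.93e-07), which is 2.13-fold and 7.05-fold. TGFβ raised it by 1.36 in the presence of Pam3 (SE 0.154, adjusted p 6.65e-05). Without Pam3 the ranges overlapped and the value was -0.37 (95% interval -0.71 to -0.02, adjusted p 0.0757), which became -0.49 (adjusted p 0.0197) without TGFβ replicate 2 and 0.03 (adjusted p 0.917) in the 7 libraries of low mitochondrial share. Slc3a2, which encodes the heavy chain that carries xCT to the cell surface, stood at 191 ± 23.3, 191 ± 4.59, 331 ± 21 and 577 ± 32.3 CPM in untreated, TGFβ, Pam3 and Pam3+TGFβ cells (SD, n = 3).

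Glutamate-cysteine ligase, the enzyme that sets the rate of glutathione synthesis, is built from a modifier subunit encoded by Gclm and a catalytic subunit encoded by Gclc, and the mRNAs of the subunits differed. Gclm (chromosome 3, 122039126 to 122065061, plus strand, 7 exons) stood at 76.6, 96.3 and 86.9 CPM untreated, 150, 157 and 139 with TGFβ, 107, 102 and 101 with Pam3, and 184, 178 and 182 with Pam3+TGFβ. All groups were separate, in the order untreated, Pam3, TGFβ and Pam3+TGFβ. TGFβ raised Gclm by 0.78 without Pam3 (SE 0.0632, adjusted p 2e-10) and by 0.81 with it (SE 0.063, adjusted p 1.12e-10), and Pam3 raised it by 0.26 (SE 0.0633, adjusted p 0.00515) and by 0.29 (SE 0.0623, adjusted p 0.000616) in cells without and with TGFβ. Gclc (chromosome 9, 77661797 to 77701770, plus strand, 16 exons) had the narrowest range of the 10 genes, with 57.7, 62.2 and 55.5 CPM untreated, 63.9, 70.1 and 66.3 with TGFβ, 62.5, 61.5 and 56.4 with Pam3, and 63.6, 64.3 and 64.2 with both. Its Pam3 responses were 0.04 (95% interval -0.08 to 0.17) and -0.06 (-0.18 to 0.06), so changes beyond these bounds lie outside the intervals. TGFβ without Pam3 raised Gclc by 0.19 (SE 0.0601, adjusted p 0.00934), a call that was lost without untreated replicate 3 (0.16, adjusted p 0.0539).

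Among the thioredoxin genes, Txnrd1 (chromosome 10, 82669785 to 82733546, plus strand, 14 exons), the cytosolic thioredoxin reductase, was highest with both agents. It stood at 339, 403 and 372 CPM untreated, 343, 364 and 327 with TGFβ, 471, 464 and 465 with Pam3, and 705, 634 and 659 with Pam3+TGFβ. Untreated and TGFβ libraries overlapped, and the other groups were separate. Pam3 raised it by 0.33 without TGFβ (SE 0.0577, adjusted p 0.000133) and by 0.95 with TGFβ (SE 0.0581, adjusted p 6.26e-13), and TGFβ raised it by 0.51 in the presence of Pam3 (SE 0.0577, adjusted p 4.57e-08). Its TGFβ effect without Pam3 was -0.11 (95% interval -0.23 to 0.01, adjusted p 0.124), which became -0.15 (adjusted p 0.0383) without untreated replicate 1.

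Srxn1 (chromosome 2, 151947436 to 151957687, plus strand, 2 exons) encodes sulfiredoxin, which reactivates overoxidised peroxiredoxins, and Prdx1 (chromosome 4, 116532123 to 116558398, plus strand, 6 exons) encodes one of these peroxide-reducing enzymes. Srxn1 stood at 146, 186 and 165 CPM untreated, 103, 97.2 and 90.8 with TGFβ, 191, 185 and 183 with Pam3, and 207, 191 and 198 with both. Prdx1 stood at 362, 451 and 387 CPM untreated, 266, 273 and 228 with TGFβ, 474, 449 and 409 with Pam3, and 478, 431 and 411 with both. In both genes the TGFβ libraries lay below all 9 others, which overlapped in part. TGFβ lowered Srxn1 by -0.78 (SE 0.067, adjusted p 3.15e-09) and Prdx1 by -0.65 (SE 0.0929, adjusted p 5.74e-05) without Pam3, and with Pam3 the values were 0.09 (95% interval -0.04 to 0.23) and -0.01 (-0.21 to 0.19). Pam3 raised Srxn1 by 1.04 (SE 0.0672, adjusted p 4.85e-11) and Prdx1 by 0.78 (SE 0.093, adjusted p 1.44e-05) in cells with TGFβ. In cells without TGFβ their values were 0.17 (adjusted p 0.0913) and 0.15 (adjusted p 0.324), and Srxn1 was called higher without untreated replicate 2 (0.26, adjusted p 0.000637) and without a filter (0.16, adjusted p 0.0132). Prdx1 counts are uncertain, since 4 other annotated genes, of which 3 are processed pseudogenes, match 537 to 597 bases of its 597-base coding sequence at 90.9% to 98.3% identity and have no row of their own.

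Hmox1 (chromosome 8, 75820241 to 75827217, plus strand, 5 exons) encodes haem oxygenase 1, which breaks haem down to biliverdin, iron and carbon monoxide, and Nqo1 (chromosome 8, 108113835 to 108129934, minus strand, 6 exons) encodes a quinone reductase often read as a marker of NRF2 activity. Hmox1 stood at 372, 463 and 410 CPM untreated, 185, 198 and 187 with TGFβ, 545, 529 and 518 with Pam3, and 483, 460 and 437 with both. Its TGFβ libraries were below all others and its Pam3 libraries above all others, while untreated and Pam3+TGFβ overlapped. TGFβ lowered Hmox1 by -1.13 (SE 0.0615, adjusted p 1.13e-13) without Pam3 and by -0.21 (SE 0.0605, adjusted p 0.00694) with it, and Pam3 raised it by 0.35 (SE 0.0606, adjusted p 0.000122) without TGFβ and by 1.27 (SE 0.0617, adjusted p 1.82e-14) with TGFβ. Nqo1 stood at 22.1, 26.5 and 23.6 CPM untreated, 7.31, 10.0 and 9.82 with TGFβ, 22.4, 25.3 and 24.7 with Pam3, and 13.3, 11.8 and 12.2 with both. All 6 libraries with TGFβ lay below all 6 without it, and untreated and Pam3 libraries overlapped. TGFβ lowered Nqo1 by -1.41 (SE 0.106, adjusted p 2.26e-11) without Pam3 and by -0.96 (SE 0.104, adjusted p 2.28e-08) with it. Pam3 raised it by 0.45 in cells with TGFβ (SE 0.109, adjusted p 0.00154), and its value without TGFβ was 0.00 (95% interval -0.21 to 0.21, adjusted p 0.999).

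Sod2 (chromosome 17, 13224095 to 13259591, plus strand, 5 exons), the superoxide dismutase of mitochondria, rose with Pam3 in both conditions. It stood at 188, 231 and 219 CPM untreated, 187, 200 and 178 with TGFβ, 529, 516 and 526 with Pam3, and 720, 694 and 684 with both. The 6 libraries with Pam3 were all above the 6 without it, and those with both agents were highest. Gm64481, annotated on the other strand, matches 152 bases of the Sod2 coding sequence at 100% identity and has no row of its own. Pam3 raised Sod2 by 1.30 without TGFβ (SE 0.0598, adjusted p 7.36e-14) and by 1.89 with TGFβ (SE 0.0608, adjusted p 3.32e-18), and TGFβ raised it by 0.42 with Pam3 (SE 0.0588, adjusted p 1.89e-06). Without Pam3 the TGFβ and untreated ranges overlapped, and the called value of -0.17 (SE 0.0591, adjusted p 0.0166) was -0.11 to -0.15 and not called without untreated replicate 2 or 3 or TGFβ replicate 1 or 3 (adjusted p 0.108, 0.0641, 0.0921 and 0.176).

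Levels of different genes can be compared only after division by transcript length. Reads that span exon junctions may go uncounted (Srxn1 has 2 exons and Gclc 16), and Prdx1 counts are uncertain, so the order is approximate. On the scale of mean CPM per kilobase of the canonical transcript, untreated cells held 263 for Hmox1, 150 for Prdx1, 112 for Txnrd1, 81.2 for Nfe2l2, 35.5 for Sod2, 23.0 for Srxn1, 22.8 for Slc7a11, 17.0 for Gclc, 13.6 for Gclm and 9.02 for Nqo1. With Pam3+TGFβ the order of the highest was 292 for Hmox1, 200 for Txnrd1, 165 for Prdx1, 125 for Slc7a11 and 117 for Sod2, and Nqo1 was again lowest at 4.65.

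The first question of the design is what TLR2 activation does with and without TGFβ. Without TGFβ, Pam3 raised 5 of the 10 genes (Hmox1, Gclm, Txnrd1, Slc7a11 and Sod2) and lowered 0, where the calls over the 14749 tested genes were 9.62% higher and 8.66% lower. With TGFβ, Pam3 raised 9 of the 10 and lowered 0, with Gclc not called, where those over all tested genes were 20.4% higher and 18.1% lower. The median log2 fold change of the 10 genes was 0.21 without TGFβ and 0.87 with TGFβ, and that of all tested genes 0 and -0.019. Upper-quartile scaling changed the split over all genes with TGFβ from 3008 higher and 2670 lower to 2477 higher and 3489 lower, and left the 9 calls. By range alone, 6 of 10 genes without TGFβ and 9 of 10 with it were separate between groups, all higher. Over all tested genes, 15.6% and 25.4% were separate and higher, and 31.4% and 50.4% were separate in either direction. In the 7 libraries of low mitochondrial share, Pam3 raised 4 of the 10 without TGFβ, with Gclm not called (0.32, adjusted p 0.0675), and 7 with TGFβ, with Nqo1 (0.30, adjusted p 0.167) and Gclm (0.20, adjusted p 0.174) not called. Of the 15597 genes tested in that fit, 4.77% were higher and 2.75% lower without TGFβ, and 11.7% and 9.91% with TGFβ. These Pam3 responses share no library.

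**Figure D2:**
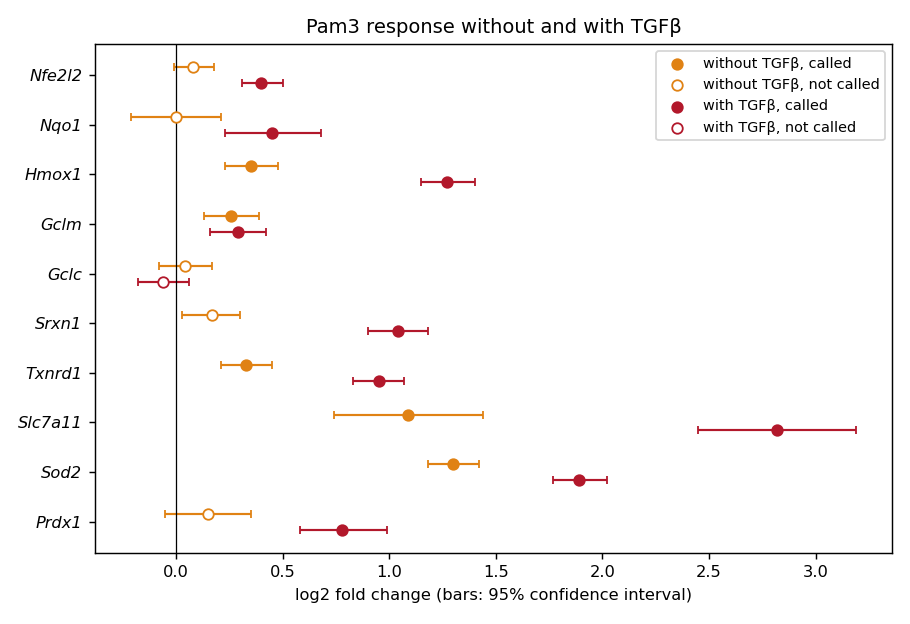
Pam3 response (log2 fold change, with 95% confidence intervals) of each of the 10 genes in cells without TGFβ (orange) and with TGFβ (red); filled points have an adjusted p under 0.05. Slc7a11 lies at 1.09 without and 2.82 with TGFβ, Gclm at 0.26 and 0.29, and Gclc near 0 in both. The intervals are not adjusted across genes.

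The difference between these responses was tested as the interaction, in which a positive value means a larger Pam3 response in cells with TGFβ. It was called higher for 8 of the 10 genes and lower for 0, against 10.3% higher and 5.67% lower among all tested genes. Over all genes these were 1516 and 836 calls, and with upper-quartile scaling 1255 and 1097. On the log2 scale it was 1.73 for Slc7a11 (SE 0.217, adjusted p 0.00054), 0.92 for Hmox1 (SE 0.0859, adjusted p 1.86e-08), 0.87 for Srxn1 (SE 0.094, adjusted p 6.34e-07), 0.63 for Prdx1 (SE 0.131, adjusted p 0.00448), 0.62 for Txnrd1 (SE 0.0816, adjusted p 2.97e-06), 0.59 for Sod2 (SE 0.0834, adjusted p 9.56e-06) and 0.32 for Nfe2l2 (SE 0.0636, adjusted p 0.000685). Nqo1 had 0.45 (SE 0.148, adjusted p 0.0366), but this call was lost with upper-quartile scaling (0.41, adjusted p 0.0648) and on leaving out any of 6 libraries. Those were untreated replicate 2 (0.38), TGFβ replicate 1 (0.30), Pam3 replicate 1 (0.41) or 3 (0.48), and Pam3+TGFβ replicate 1 (0.38) or 3 (0.45), with adjusted p from 0.0522 to 0.176. Both subunits of glutamate-cysteine ligase were not called, with 0.03 for Gclm (95% interval -0.15 to 0.22) and -0.10 for Gclc (-0.28 to 0.07). The median over the 10 genes was 0.61, against 0.005 over all tested genes. In the 7 libraries of low mitochondrial share, a fit chosen after the data were seen and with 1 library each for TGFβ and Pam3 (assumed to vary like the other groups), the interaction was called higher for 4 of the 10 genes and lower for 0, against 3.69% and 1.45% of the genes tested in that fit. The 4 were Slc7a11 (1.34, adjusted p 0.008), Hmox1 (0.81, adjusted p 0.00245), Srxn1 (0.81, adjusted p 0.0048) and Txnrd1 (0.51, adjusted p 0.0276). Not called there were Sod2 (0.45, adjusted p 0.0584), Prdx1 (0.45, adjusted p 0.17), Nqo1 (0.41, adjusted p 0.326) and Nfe2l2 (0.18, adjusted p 0.489). Whether the mitochondrial share has a part in the interaction was not tested beyond this fit.

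The other question of the design is what TGFβ does to these genes at rest and after Pam3. Without Pam3, TGFβ lowered 6 of the 10 (Nqo1, Hmox1, Srxn1, Nfe2l2, Prdx1 and, less stably, Sod2) and raised Gclm and Gclc, where 51.0% of tested genes were called, 28.1% lower and 22.9% higher. With Pam3 present, TGFβ lowered 3 (Nqo1, Nfe2l2 and Hmox1) and raised 4 (Slc7a11, Gclm, Txnrd1 and Sod2), where 45.3% of tested genes were called, 23.8% lower and 21.5% higher. The median was -0.51 without Pam3 and 0.09 with it, against -0.008 and -0.002 over all tested genes. Between groups without Pam3 the ranges of 2 genes were separate and higher and of 5 separate and lower, against 26.1% and 30.3% of tested genes (56.4% in all). With Pam3 they were 6 higher and 3 lower, against 26.8% and 28.3% (55.1% in all). In the 7 libraries of low mitochondrial share, TGFβ without Pam3 lowered 5 and raised 2, with Sod2 not called (-0.04, adjusted p 0.794). With Pam3 it lowered 2 and raised 4, with Hmox1 not called (-0.24, adjusted p 0.0804). Among the 15597 genes tested in that fit, the calls of the first comparison were 2725 lower (17.5%) and 2407 higher, and those of the second 2492 lower and 2107 higher (29.5% together). The summed neutrophil, macrophage, endothelial, and mast cell and megakaryocyte markers given above were also lower in the groups with TGFβ. This holds for the sums and not for each gene in them, and their part in these results was not tested.

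**Figure D3:**
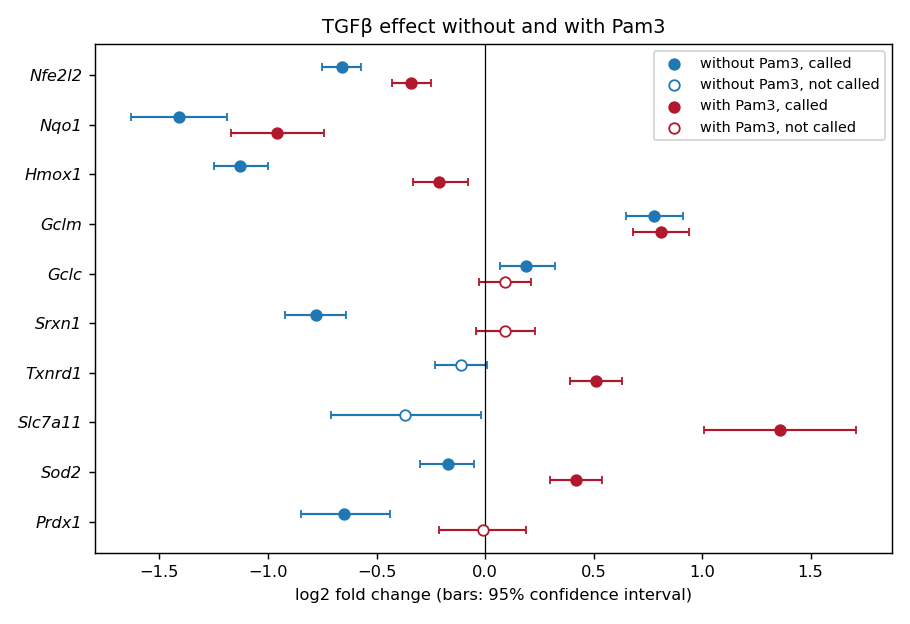
TGFβ effect (log2 fold change, with 95% confidence intervals) on each of the 10 genes without Pam3 (blue) and with Pam3 (red); filled points have an adjusted p under 0.05. Values without Pam3 run from -1.41 for Nqo1 to 0.78 for Gclm, and values with Pam3 from -0.96 for Nqo1 to 1.36 for Slc7a11. Gclm lies at about the same value in both. The intervals are not adjusted across genes.

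Other genes of the pathway were taken from 8 lists and are described by counts, beside the background shares above. Of 13 regulators and partners of NRF2, Pam3 raised 4 without TGFβ and 7 with TGFβ, against 9.62% and 20.4% of all tested genes. It lowered 0, against 8.66% and 18.1%. The interaction was called higher for 4 and lower for 0, against 10.3% and 5.67%, with a median of 0.17. The list holds the 3 small MAF proteins, which pair with NRF2 or with its competitor BACH1, and the interaction was called for Maff and Mafk and not for Mafg (0.08, SE 0.0783, adjusted p 0.565). Maff stood at 15.4 ± 2.14 CPM untreated, 32 ± 2.72 after TGFβ, 19.1 ± 2.37 after Pam3 and 66.8 ± 2.34 after the combination (SD, n = 3), and its interaction was 0.75 (SE 0.133, adjusted p 0.000216). Mafk stood at 32.8 ± 1.63, 34.9 ± 0.569, 39 ± 0.987 and 71.2 ± 0.732 CPM in these groups (SD, n = 3), and its interaction was 0.78 (SE 0.0831, adjusted p 1.12e-07). Sqstm1, which encodes p62, a protein that binds KEAP1, had an interaction of 0.61 (SE 0.0908, adjusted p 4.98e-05). Keap1 rose with Pam3 by 0.25 in cells with TGFβ (SE 0.0571, adjusted p 0.00103), a call lost in the 7 libraries of low mitochondrial share (0.20, adjusted p 0.12). TGFβ raised Keap1 too, by 0.15 without Pam3 (SE 0.0573, adjusted p 0.0299) and by 0.24 with Pam3 (SE 0.0571, adjusted p 0.00103), values given from the main fit only. For Bach1, a repressor of Hmox1, the Pam3 responses were -0.13 and -0.07 (adjusted p 0.0863 and 0.326). Its TGFβ effect without Pam3, -0.16 (adjusted p 0.0123), lost its call without untreated replicate 1 or 3 or TGFβ replicate 1 or 3 (adjusted p 0.14, 0.0582, 0.169 and 0.0716).

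The glutathione list had 16 of 17 genes tested, and they went both ways. Without TGFβ, Pam3 raised 4 and lowered 5, against 9.62% and 8.66% of all tested genes. With TGFβ it raised 5 and lowered 5, against 20.4% and 18.1%. TGFβ without Pam3 raised 5 and lowered 4, against 22.9% and 28.1%. The interaction was called higher for 3 (Slc3a2, Abcc1 and Gpx3) and lower for 2, against 10.3% and 5.67% of all tested genes. The 2 were Mgst1 (-0.26, adjusted p 0.0135) and Glrx (-0.25, adjusted p 0.0265), which were named after their values were seen. Neither was followed through alternative fits. In the 7 libraries of low mitochondrial share the calls of Abcc1 (0.24, adjusted p 0.365) and Gpx3 (0.50, adjusted p 0.0889) were lost, and that of Gpx3 was also lost with upper-quartile scaling and on leaving out any of 8 libraries. Slc3a2 had an interaction of 0.80 (SE 0.0971, adjusted p 6.46e-06). Abcc1, which exports glutathione conjugates, had one of 0.41 (SE 0.0766, adjusted p 0.000307). Gpx3, a secreted glutathione peroxidase, stood at 67.4 ± 3.04 CPM untreated and 13.3 ± 0.258 with TGFβ (SD, n = 3), a log2 effect of -2.34 (SE 0.0793, adjusted p 2.33e-18). Its Pam3 response was -0.26 without TGFβ (adjusted p 0.0136) and 0.09 with TGFβ (adjusted p 0.443).

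Of 12 thioredoxin and peroxiredoxin genes, TGFβ without Pam3 lowered 7 and raised 0, against 28.1% and 22.9% of all tested genes. The interaction was called higher for 3 (Prdx5, Prdx6 and Txnip) and lower for 0, against 10.3% and 5.67%. Prdx6 (0.31) and Txnip (0.22) were not called in the 7 libraries of low mitochondrial share. Prdx5 rose with Pam3 by 0.47 without TGFβ (SE 0.0677, adjusted p 2.36e-05) and 1.02 with TGFβ (SE 0.0682, adjusted p 7.7e-11). Txnip, which encodes an inhibitor of thioredoxin, stood at 318 ± 8 CPM untreated and 148 ± 2.3 with TGFβ (SD, n = 3), a log2 effect of -1.10 (SE 0.0448, adjusted p 1.14e-16). Of the 3 tested genes of the dismutase and catalase list, 0 were called for Pam3 without TGFβ or for the interaction. Over all tested genes these shares were 18.3% and 15.9%. In each other comparison 1 of the 3 was called, against 38.5% to 51.0% of all tested genes. Catalase, encoded by Cat, was higher with TGFβ by 0.17 without Pam3 (adjusted p 0.000908) and by 0.18 with Pam3 (adjusted p 0.000508), with group means of 238 to 274 CPM. Ccs, the copper chaperone of SOD1, was lower with Pam3 in cells with TGFβ (-0.30, adjusted p 0.0104), with group means of 16.9 to 20.9 CPM. Of 8 genes that supply NADPH, TGFβ raised 6 without Pam3 and 5 with it, against 22.9% and 21.5% of all tested genes. It lowered 0, against 28.1% and 23.8%. Me1, malic enzyme, rose with TGFβ by 0.51 without Pam3 (SE 0.122, adjusted p 0.00109) and 0.76 with it (SE 0.116, adjusted p 5.67e-06).

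All 13 genes of the haem, ferritin and detoxification list were called lower with TGFβ without Pam3, against 28.1% of all tested genes. Their median was -0.70. With Pam3, 9 of the list were called lower and 0 higher, against 23.8% and 21.5% of all tested genes. The largest falls of the list without Pam3 were those of Akr1b8, Ephx1 and Slc40a1. Akr1b8, an aldo-keto reductase, went from 11.6 ± 1.82 to 0.954 ± 0.109 CPM (SD, n = 3, log2 fold change -3.60, SE 0.165, adjusted p 1.23e-15). Ephx1, microsomal epoxide hydrolase, went from 23.9 ± 0.233 to 3.8 ± 0.669 CPM (-2.66, SE 0.115, adjusted p 3.63e-16). Slc40a1, the iron exporter ferroportin, went from 49.7 ± 1.31 to 11.7 ± 0.855 CPM (-2.08, SE 0.0931, adjusted p 7.24e-16). Pam3 lowered Slc40a1 too, by -1.34 without TGFβ and -1.70 with TGFβ (adjusted p 3.48e-11 and 1.38e-12). For Akr1b8 the interaction was 1.01 (SE 0.23, adjusted p 0.00272), and 0.71 and not called in the 7 libraries of low mitochondrial share (adjusted p 0.353), with 11.6 ± 1.24 CPM after Pam3 and 1.92 ± 0.131 CPM after both agents (SD, n = 3).

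Among the genes that make oxidants, Cybb, the catalytic subunit of the phagocyte NADPH oxidase, stood at 2761 ± 104, 1758 ± 109, 3872 ± 195 and 3658 ± 91.7 CPM in untreated, TGFβ, Pam3 and Pam3+TGFβ cells (SD, n = 3), and its interaction was 0.57 (SE 0.0802, adjusted p 8.39e-06), or 0.35 (adjusted p 0.0511) in the 7 libraries of low mitochondrial share. Ncf4, another oxidase subunit, rose with Pam3 by 0.57 and 0.67 without and with TGFβ (adjusted p 6.88e-08 and 6.78e-10). Rac2, the small GTPase of the complex, fell with TGFβ by 0.64 and 0.70 on the log2 scale without and with Pam3 (adjusted p 4.61e-11 and 1.02e-11). Of the 8 genes of this list that were tested, the interaction was called higher for 2 and lower for 0, against 10.3% and 5.67% of all tested genes.

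The list of ATF4 targets and amino acid stress genes was added because Slc7a11 is a known ATF4 target. Of 12 tested genes, Pam3 without TGFβ raised 0 and lowered 1, against 9.62% and 8.66% of all tested genes. With TGFβ it raised 3 and lowered 2, against 20.4% and 18.1%. The interaction was called higher for 1 and lower for 1, against 10.3% and 5.67%. Atf3, a stress-induced transcription factor, was at 87.5 ± 5.16 CPM untreated, 10 ± 0.514 after TGFβ, 87.7 ± 13.6 after Pam3 and 50.7 ± 1.32 after the combination (SD, n = 3), and its interaction was 2.33 (SE 0.122, adjusted p 4.9e-12). Asns, asparagine synthetase, had a log2 TGFβ effect of -1.33 without Pam3 (SE 0.127, adjusted p 5.37e-09), and Phgdh, of serine synthesis, rose with TGFβ by 0.50 (SE 0.0739, adjusted p 3.38e-06).

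**Figure D4:**
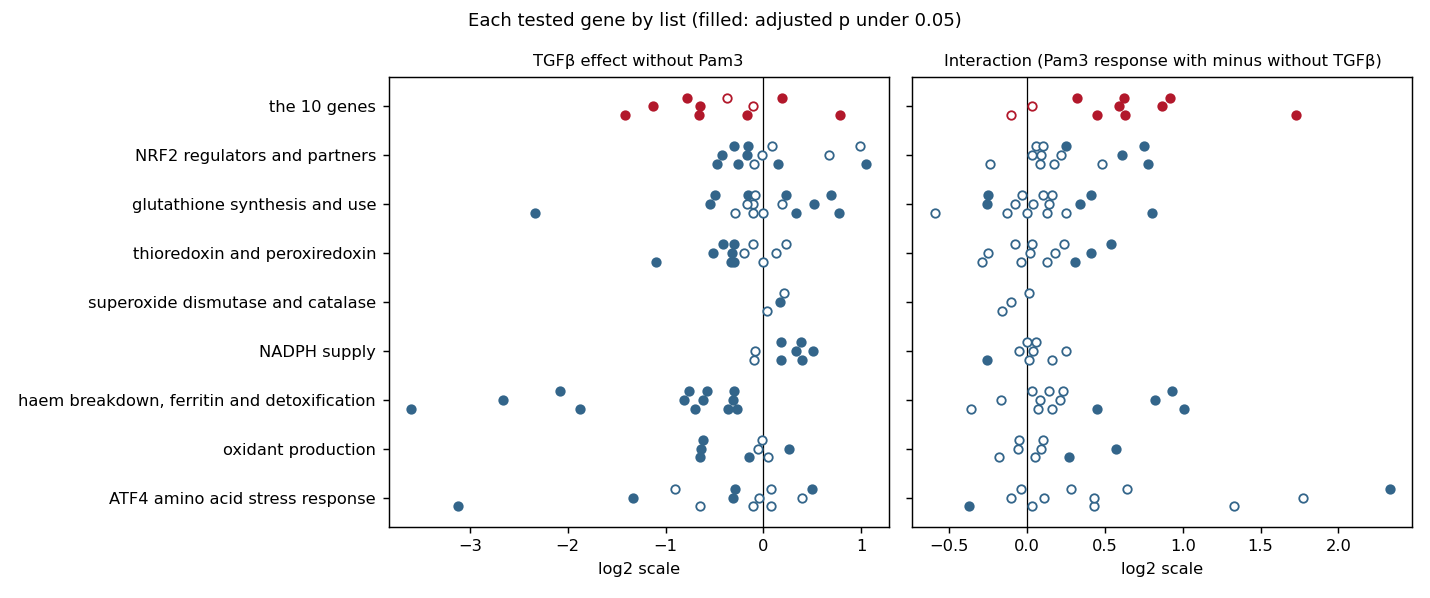
Log2 fold change of TGFβ without Pam3 (left) and interaction on the log2 scale (right) for every tested gene of the 10 genes (red) and the 8 pathway lists (blue); filled points have an adjusted p under 0.05. All 13 points of the haem, ferritin and detoxification list lie below 0 on the left, and 8 of the 10 red points are filled and above 0 on the right.

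For 4 of the genes, those with the most similar course were sought among 9563 other genes with a mean of at least 5 CPM, by the root mean square difference between the 4 group means of log2 CPM after centring each gene on its own mean. Nearest to Nqo1 were H2-Aa (0.0255), Pycard (0.0334) and Slc35d2 (0.0412). Nearest to Hmox1 were Pstpip2 (0.0543), Kif3c (0.0655) and Mapkapk2 (0.0705). Nearest to Slc7a11 were Parp14 (0.0396), Ifi207 (0.0858) and Oas1a (0.111). Nearest to Sod2 were Marcksl1 (0.0732), Epha4 (0.137) and Irf9 (0.175). Parp14, for example, had group means of 108, 83.1, 247 and 597 CPM in untreated, TGFβ, Pam3 and Pam3+TGFβ cells, beside 210, 163, 449 and 1151 CPM for Slc7a11. The measure rests on 4 group means and describes a course only.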

How the data were processed

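Polyadenylated RNA of 12 libraries was measured. The submitters' processing notes name FastQC 0.11.7, Bowtie2 2.4.1, featureCounts from Subread 2.0.0, DESeq2 1.36.0 and the genome GRCm39. The annotation, and how strand and multiply aligned reads were handled, are not given in the sources used here. Bowtie2 does not split reads over introns, so a read that spans a junction may go uncounted or align to an intronless copy, and without a stated strand setting antisense overlaps cannot be told apart. Antisense or overlapping genes with a row of their own reached at most 96 counts in any library.

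The deposited counts are whole reads per symbol. The deposited normalized values are a signal, each count divided by a constant per library, and served only in an alternative. Genes were kept with filterByExpr (minimum count 10; 14749 of 40847 rows), scaled by TMM and tested in R 4.3.3 with edgeR 4.0.16 (quasi-likelihood) over all 12 libraries and 4 group means. Calls were made at 0.05 after Benjamini-Hochberg adjustment across the 14749 genes. The SE is the log2 fold change divided by the root of F. Alternatives used RLE and upper-quartile scaling, DESeq2 1.42.0, limma 3.58.1 (limma-trend on log2 of the normalized values plus 1), other filters, a replicate block, the libraries compared alone, and each library left out. A fit of the libraries with a mitochondrial share under 0.2% was added after the data were seen. The procedure was tested on simulated counts. Reads carry no molecular identifiers, so precision statements cover counting and spread between libraries only.

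The 10 genes and all lists were chosen with earlier results of these data known. Named from each other list were up to 3 called genes with at least 5 CPM in a group and the largest change, plus Keap1 and Bach1. Other genes were named after their values were seen, and this is said where it applies, or here for Mafg and Sod1. Markers of cell identity were named as a check. Positions, exons and transcript lengths come from GENCODE M39 on GRCm39, and copies of a coding sequence were sought with blastn (at least 90% identity over 150 bases).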

Additional observations from a re-analysis of the deposited data

Results flagged for a closer look

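For 8 of the 10 genes, the interaction test (edgeR, adjusted over all tested genes) found a Pam3 response that depended on TGFβ. It did so for 13 of the 25 other genes picked by the naming rule, and for 15.9% of all tested genes. The 25 include Taldo1, not described above, and leave out genes named after their values were seen. The other genes were named partly for a large change, so their count is no independent evidence. The interactions on the log2 scale were 1.73 for Slc7a11, 0.92 for Hmox1, 0.87 for Srxn1, 0.63 for Prdx1, 0.62 for Txnrd1, 0.59 for Sod2, 0.45 for Nqo1 and 0.32 for Nfe2l2. Among the regulators and partners of NRF2 they were 0.78 for Mafk, 0.75 for Maff and 0.61 for Sqstm1. Among the genes of glutathione, thioredoxin and NADPH they were 0.80 for Slc3a2, 0.54 for Prdx5, 0.41 for Abcc1 and 0.41 for Prdx6. They were also 0.34 for Gpx3, 0.31 for Txnip and -0.26 for Idh1, the 1 gene here with a negative interaction. Pam3 lowered Idh1 in both conditions, by -0.22 without TGFβ and -0.49 with TGFβ (edgeR adjusted p 0.00052 and 1.27e-09). For the remaining genes the interactions were 2.33 for Atf3, 1.01 for Akr1b8 and 0.57 for Cybb. The call of Gpx3 (adjusted p 0.0316) was lost with upper-quartile scaling and on leaving out any of 8 libraries, with the adjusted p rising to at most 0.17. In the 7 libraries of low mitochondrial share the interactions of Sod2 (0.45), Prdx1 (0.45), Nqo1 (0.41) and Nfe2l2 (0.18) were not called, and that of Nqo1 was lost in 8 alternatives in all. The interactions of Abcc1 (0.24), Akr1b8 (0.71), Cybb (0.35), Gpx3 (0.50), Idh1 (-0.30), Prdx6 (0.31) and Txnip (0.22) were not called in that fit either, with adjusted p from 0.0511 for Cybb to 0.365 for Abcc1.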

How the results depend on the processing

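Of 1040 values of the 10 genes under the alternatives, 1014 kept their side of the threshold, 22 lost a call and 4 gained one, all given above or here, and the cause was not tested. No called value changed sign. Among values not called, 23 did: those of the Nqo1 Pam3 response without TGFβ, the Prdx1 TGFβ effect with Pam3, the Gclm interaction and, in the 7 libraries of low mitochondrial share, the Slc7a11 TGFβ effect without Pam3 (from -0.37 to 0.03). Sod2 with TGFβ alone was also not called in a fit of the 6 libraries compared (-0.16, adjusted p 0.0691). When a library was left out, the number of the 10 genes called was 5 to 6 for Pam3 without TGFβ, 9 for Pam3 with TGFβ, 6 to 9 for TGFβ without Pam3, 7 for TGFβ with Pam3 and 7 to 8 for the interaction. Over all genes, in the same order, the calls were 1965 to 2729, 4856 to 6152, 6923 to 7580, 5984 to 7085 and 1902 to 2430. Counts moved by more than 1.5 times only in the 7 libraries of low mitochondrial share, which are fewer samples: to 1173 genes for Pam3 without TGFβ, 3370 for Pam3 with TGFβ and 802 for the interaction, and to 4 of the 10 genes for the interaction. The replicate numbers were not taken as pairs, since 7 of 18 same-numbered pairs of libraries had a correlation over 0.1 and 5 of 12 libraries correlated best with their own number. All 6 pairs of replicate 3 were positive (0.0332 to 0.3), against 3 of 6 for replicate 1 and 2 of 6 for replicate 2. Replicate 3 of the untreated, TGFβ and Pam3 groups is in each case a library of high mitochondrial share. Pam3 replicate 1 and TGFβ replicate 2, both of low share, had 0.323. TGFβ replicate 2 and untreated replicate 3, of unlike share, had -0.397. Pam3 replicate 1 and Pam3+TGFβ replicate 2, both of low share, had -0.0756. The part of the mitochondrial share in these correlations was not tested. With the replicate number as a block, 2393 genes had a called interaction, and the calls among the 10 genes were 5, 9, 8, 7 and 8 in the order above. Of 2600 values of the 25 other genes picked by the naming rule, 55 lost a call, 45 gained one, and 54 that were not called changed sign. With 3 libraries a group, differences smaller than the printed intervals could not be resolved.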

Other observations

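Genes of the same lists outside the naming rule, chosen after their values were seen, had sizeable values too. Fth1, the heavy chain of the iron store ferritin, had group means of 8047, 4581, 10256 and 10333 CPM in untreated, TGFβ, Pam3 and Pam3+TGFβ cells, an interaction of 0.82 (SE 0.09, edgeR adjusted p 2.05e-07). Osgin1, an oxidative stress-induced growth inhibitor, had 12.5, 3.4, 15.9 and 8.28 CPM and an interaction of 0.93 (SE 0.176, edgeR adjusted p 0.00039). Glrx, glutaredoxin, had 145, 249, 214 and 306 CPM and an interaction of -0.25 (SE 0.0776, edgeR adjusted p 0.0265). The interactions of Fth1, Osgin1 and Glrx come from the main fit and were not followed through the alternatives, the fit of low mitochondrial share included.

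Sod1, the cytosolic superoxide dismutase and an abundant enzyme in most cells, stood at 2.3 to 2.99 CPM as group means. Reads can be lost at exon junctions or to copies of a gene in the deposited counting, and the part of this in the level of Sod1 was not tested.

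Within each group, 1 library was the highest for most of the 10 genes. Untreated replicate 2 was the highest of its group for 9 of the 10 genes and untreated replicate 1 the lowest for 9, where 41.4% and 30.9% of all tested genes had these extremes. TGFβ replicate 2 was highest for 9 (35.4% of tested genes), Pam3 replicate 1 for 8 (35.9%) and Pam3+TGFβ replicate 1 for 9 (33%). Each of these libraries is among the 7 of low mitochondrial share, as is untreated replicate 1, and TGFβ replicate 2 and Pam3 replicate 1 are the only ones of their groups. The part of the mitochondrial share in this order was not tested. Outside the untreated group the lowest library varied: replicates 1, 2 and 3 were lowest for 4, 0 and 6 genes with TGFβ, 1, 3 and 6 with Pam3, and 1, 6 and 3 with both. The median ratio of a library to its group mean over the 10 genes ran from 0.9 to 1.09.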
